A study of Mus musculus with 32 samples.

Results

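The trophoblast lineage genes are 10 genes that mark or specify the outer cells of the early mouse embryo: Cdx2, Elf5, Gata3, Gata2, Tfap2c, Hand1, Ascl2, Krt8, Krt18 and Krt7. They were taken by gene name from the authors' 5 deposited tables of normalised counts, which together list 17440 gene identifiers. Of the 10 genes, 9 were listed in at least 1 table, and Elf5 was listed in none. The tables cover 32 RNA-seq libraries, 2 in each of 16 groups, of E14, an established mouse embryonic stem cell line. All groups share an auxin-inducible degron (AID), a tag that sends its protein for degradation once an auxin is added, fused to the loop anchor CTCF or to the cohesin subunit RAD21. In the hairpin table, CTCF AID cells carried a control hairpin or a short hairpin against Chd4, the remodelling ATPase of NuRD, and the labels give no IAA for either. CTCF AID cells were otherwise sampled after 0, 12 or 24 h of 500 uM indole-3-acetic acid (IAA), and under a serum condition after 0 or 12 h. RAD21 AID cells were sampled after 0, 12 or 24 h of 1 uM 5-Ph-IAA, an IAA analogue. A further table held CTCF AID cells overexpressing a control, wild-type CTCF or mutated CTCF, each with or without IAA by its title, and the labels do not say which mutation was used. For 4 of the 12 overexpression libraries the treatment label contradicts the title, and the groups follow the titles. In the mutated CTCF group that has no IAA in its titles, both libraries carry a treatment label of 12 h of IAA. In the wild-type group whose titles name IAA, both carry a label of no treatment, so the IAA time of that group is not known. The other overexpression libraries with IAA had 12 h of it. The labels do not say whether a line was 1 clone, which vector carried the hairpin, or whether replicates were separate cultures, so the p-values measure only the spread between these libraries.

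In the mouse blastocyst, trophectoderm separates from the pluripotent inner cell mass when TEAD4 with its Hippo-regulated co-activator YAP1 turns on Cdx2 and Gata3 in outer cells. Elf5, Eomes and Tfap2c then hold trophoblast stem cells in their state, while Gata2, Hand1 and Ascl2 act in the placental cell types that form from them. Krt8 and Krt18 pair into the simple-epithelial keratin filaments of trophectoderm, and Krt7 is a further simple-epithelial keratin used as a trophoblast marker. Embryonic stem cells derive from the inner cell mass and give rise to trophoblast poorly. Tfap2c is nevertheless also expressed in stem cells and the germ line.

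Library totals lay between 15364584 and 19642332 normalised counts. The Chd4 hairpin check held, with Chd4 at 9725 ± 281 in the control hairpin and 3554 ± 248 in the Chd4 hairpin libraries (SD, n = 2 here and for every mean below). Degron loss is of protein, so the Ctcf and Rad21 transcripts check nothing in the degron groups. A gene was tested where its mean over all libraries of a table was at least 10. Differences were fitted with limma on log2(value + 1), each is a log2 difference on that scale, and a call required p under 0.05 after Benjamini-Hochberg adjustment over the whole table.

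The hairpin against Chd4 split the trophoblast lineage genes. Krt8, Krt18 and Gata3 rose, Gata2 and Tfap2c fell, Krt7 and Ascl2 passed no test, and Cdx2, Elf5 and Hand1 were not listed. Of the 7 members listed and tested, 5 were called (71.4%), beside 67.4% of all 15499 genes tested in this comparison, a share near the background. The 3 that rose stand beside 33.5% of all genes called higher, and the 2 that fell beside 33.8% called lower. The groups did not overlap for 4 members that were higher and 2 that were lower, beside 84.4% of all genes tested in either direction. At a change of at least 2-fold, 4 of the 7 were called, against 28.8% of all genes tested. These counts include Gata3, which passed the filter only through its Chd4 hairpin libraries and so had to differ. Of the other 6 members, 4 were called (66.7%), beside 65.6% of the 14220 genes left when all genes with a control mean under 10 are set aside. At 2-fold or more 3 of the 6 were called, beside 3356 of those 14220. The members' median log2 difference was 0.15 and that of all genes 0.01, but under quantile normalisation the members' median was -0.27, with 3 called higher and 3 lower. In these bulk libraries, fewer or more cells of a type and less or more RNA per cell cannot be told apart.

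**Figure D1:**
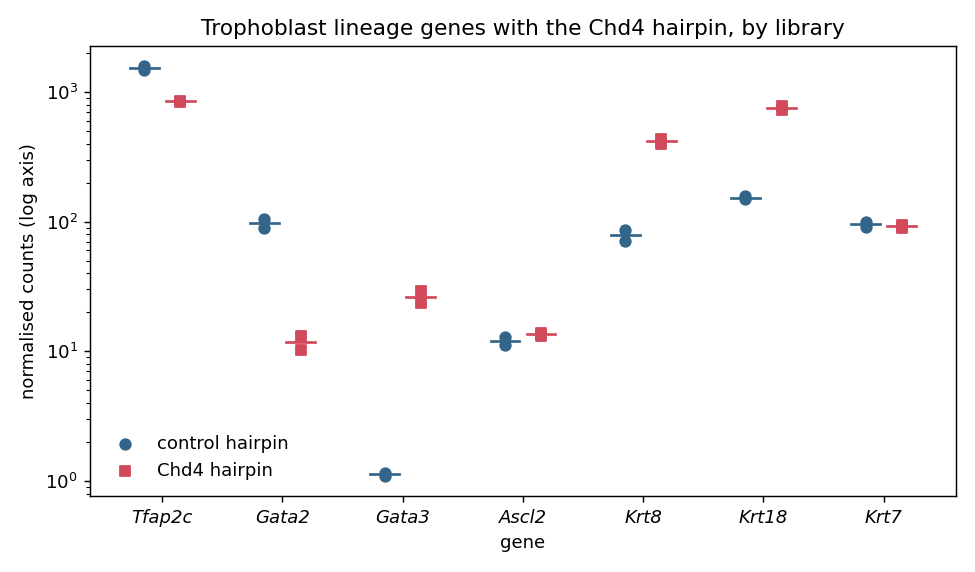
Normalised counts (log axis) of the 7 listed trophoblast lineage genes in the 2 control hairpin libraries (circles) and the 2 Chd4 hairpin libraries (squares), with a bar at each group mean. The groups lie apart for Krt8, Krt18 and Gata3, which were higher with the Chd4 hairpin, and for Gata2 and Tfap2c, which were lower. The Ascl2 groups also lie apart, by little, and Ascl2 was not called. Of all genes tested in this comparison, 84.4% had groups that lay apart.

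Gata3, a zinc-finger factor of early trophectoderm, was at 1.10 and 1.15 normalised counts in the control hairpin libraries and at 23.5 and 29.1 in the Chd4 hairpin libraries. Both Chd4 hairpin libraries thus lay above both controls, where Gata3 was near 1 normalised count. It rose by 3.67 on the log2 scale (SE 0.45, limma adjusted p = 0.000383), a size that depends on the pseudocount at such a low control level and ranged from 2.15 to 4.03 over the alternatives. On the GRCm38 annotation, Gata3 (ENSMUSG00000015619.10, chr2:9857078-9890034, minus strand) shares exon sequence with 9230102O04Rik on its own strand and with the antisense Gm13256, and neither was listed in any table. No other table listed Gata3.

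Gata2, its relative that acts in trophoblast giant cells and blood, moved the opposite way. It was at 89.1 and 105 normalised counts in the control hairpin libraries and at 13.2 and 10.2 in the Chd4 hairpin libraries. The groups did not overlap, and Gata2 fell by 2.96 on the log2 scale (SE 0.28, limma adjusted p = 0.000123). Only 79 of the 15499 genes tested had a lower log2 difference than Gata2 (ENSMUSG00000015053.14, chr6:88193891-88207032, plus strand). Set per kilobase of exon, Gata2 and Gata3 changed order, from 18.02 ± 2.14 for Gata2 and 0.283 ± 0.0104 for Gata3 in the controls to 2.17 ± 0.3997 for Gata2 and 6.61 ± 0.991 for Gata3.

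Tfap2c, an AP-2 family factor of trophoblast and germ cells, was at 1483 and 1577 normalised counts in the control hairpin libraries and at 840 and 857 in the Chd4 hairpin libraries. It fell by 0.85 on the log2 scale (SE 0.06, limma adjusted p = 4.48e-05), with no overlap between the groups (ENSMUSG00000028640.11, chr2:172549593-172558622, plus strand). Ascl2, a helix-loop-helix factor of the spongiotrophoblast, was low in all 4 libraries, at 11.2 and 12.95 in the controls and at 13.8 and 13.2 with the Chd4 hairpin. These groups lay just apart. Its log2 difference of 0.15 (95% interval -0.71 to 1.02, limma adjusted p = 0.727) did not pass. Quantile normalisation turned the sign for Ascl2 alone among the 7 members, to -1.07 with an adjusted p of 0.0422.

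The keratins divided in the same libraries. Krt8 was at 70.5 and 86.0 normalised counts in the controls and at 399 and 432 in the Chd4 hairpin libraries. Krt18 was at 149 and 157 in the controls and at 731 and 782 in the Chd4 hairpin libraries. Both filament partners were thus far higher in both Chd4 hairpin libraries, and no libraries overlapped. The log2 difference was 2.40 for Krt8 (5.28-fold, SE 0.15, limma adjusted p = 2.26e-05), with 1123 of 15499 genes above it. For Krt18 it was 2.30 (4.93-fold, SE 0.10, limma adjusted p = 6.1e-06), with 1194 genes above it. Krt7 was at 90.7 and 100 in the controls and at 89.4 and 94.9 in the Chd4 hairpin libraries, so its groups overlapped. The log2 difference of Krt7 was -0.05, with a 95% interval from -0.47 to 0.37 (limma adjusted p = 0.817), an interval that lies wholly below the intervals of Krt8 and Krt18, which began at 2.04 and 2.06. Per kilobase of exon, Krt18 led the listed members in the Chd4 hairpin libraries at 526 ± 25.2, ahead of Tfap2c at 231 ± 3.29 and Krt8 at 212 ± 12.0, whereas Tfap2c led in the controls at 416 ± 18.1, ahead of Krt18 at 106 ± 3.81.

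The 3 keratin genes lie on chromosome 15 of GRCm38. Krt8 (ENSMUSG00000049382.10, chr15:101996698-102004482, minus strand) and Krt18 (ENSMUSG00000023043.7, chr15:102028180-102032027, plus strand) are divergent neighbours separated by 23.7 kb, and Krt7 (ENSMUSG00000023039.17, chr15:101411043-101430313, plus strand) ends 566 kb before Krt8. Exons of Krt8 overlap the lincRNA Gm36026 and those of Krt7 overlap Gm671, both on the opposite strand and listed in no table. A processed pseudogene, Krt8-ps on chromosome 7, was not listed either. The promoters of the pair that rose together and of the keratin that passed no test are printed here, each from 250 bases before to 50 bases after the transcript start, 5′ to 3′ on the gene's strand, from RefSeq on GRCm38.p6. The Krt8 window is chr15:102004293-102004592 on the minus strand, the Krt18 window chr15:102027966-102028265 on the plus strand and the Krt7 window chr15:101412153-101412452 on the plus strand. Capitals mark matches to a GATA motif or to an AP-2 motif, the recognition sequences of the GATA and Tfap2 families that include 3 of the members.
Krt8: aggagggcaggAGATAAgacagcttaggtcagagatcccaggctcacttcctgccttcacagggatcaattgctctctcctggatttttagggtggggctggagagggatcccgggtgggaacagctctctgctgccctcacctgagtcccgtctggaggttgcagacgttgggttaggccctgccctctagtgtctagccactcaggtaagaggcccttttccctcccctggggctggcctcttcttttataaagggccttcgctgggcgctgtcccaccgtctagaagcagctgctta
Krt18: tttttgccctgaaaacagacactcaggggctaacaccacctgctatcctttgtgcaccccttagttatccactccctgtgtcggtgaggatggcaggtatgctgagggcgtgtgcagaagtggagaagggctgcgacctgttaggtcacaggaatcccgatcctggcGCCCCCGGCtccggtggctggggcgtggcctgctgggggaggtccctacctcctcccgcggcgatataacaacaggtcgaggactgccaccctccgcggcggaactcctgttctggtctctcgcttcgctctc
Krt7: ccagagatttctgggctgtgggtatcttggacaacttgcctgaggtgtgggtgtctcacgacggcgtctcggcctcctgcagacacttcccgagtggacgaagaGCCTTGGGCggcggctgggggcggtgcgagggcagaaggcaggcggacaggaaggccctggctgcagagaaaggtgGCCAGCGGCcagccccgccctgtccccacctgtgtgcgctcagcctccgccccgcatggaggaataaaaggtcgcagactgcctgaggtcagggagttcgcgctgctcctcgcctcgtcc

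Motifs were searched on both strands as exact letters. The GATA motif AGATAA occurred once in the Krt8 window, starting at position -239, and in neither of the other windows. The AP-2 motif GCCNNNGGC occurred once in the Krt18 window, starting at -83, and at -146 and -70 in the Krt7 window. Over 32851 RefSeq promoter windows of this length, 11.2% held the GATA motif and 16.6% the AP-2 motif. GGAATG (TEAD), TTTATG (CDX), TGANTCA (AP-1) and AGGGGGC (CTCF core) matched in none of the 3 windows, beside 14.7%, 11.9%, 7.81% and 10.6% of all windows. No match overlapped another. The 2 keratins that rose together thus shared none of the motifs searched. A match describes the letters and is no evidence of binding. Of the 10 members, 8 had a promoter entry, and Tfap2c and Hand1 were without one.

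Other trophoblast genes also went both ways with the Chd4 hairpin. Of 38 trophoblast and placenta partner genes, 28 were tested, 12 rose and 6 fell, with a median log2 difference of 0.55. Among the rises were Cyp11a1 at 3.93, a steroid-synthesis enzyme of giant cells, the imprinted placental gene Peg10 at 3.77, and Rhox6 at 3.69, a homeobox gene of the placenta. Among the falls were Sox21 at -1.66, the trophoblast stem cell factor Ets2 at -1.54 and P-cadherin, Cdh3, at -1.33. Peg10 went from 238 ± 50.4 normalised counts to 3225 ± 77.2, and Ets2 from 518 ± 44.2 to 178 ± 19.6. The share of tested partners called, 64.3%, was close to the 67.4% of all genes, and 4 of the called partners passed the filter only through their Chd4 hairpin libraries.

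Genes of the Hippo pathway, which sets TEAD activity in outer cells, were called in 17 of 19 tested (89.5%, beside 67.4% of all genes), 11 higher and 6 lower, with a median log2 difference of 0.21. The kinase gene Lats2 rose by a log2 difference of 2.48, the TEAD cofactor gene Vgll4 by 1.62 and the YAP target Ccn1 by 1.38. The angiomotin gene Amot fell by 2.80, the kinase gene Stk3 by 1.48 and Nf2, an upstream activator of the kinases, by 1.27. Simple-epithelial genes were called in 15 of 20 (75.0%), 9 higher and 6 lower, with a median of 0.15. S100a6 at 3.75, the epithelial transcription factor Grhl2 at 3.39 and the keratin Krt19 at 2.18 rose, whereas the junction genes Cldn4 at -2.27, Dsg2 at -2.04 and Jup at -1.21 fell. Keratins and junction genes of epithelia therefore did not change in 1 direction in these libraries.

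Markers of other cell types moved in the same Chd4 hairpin libraries, where 67.4% of all genes were called, 33.5% higher and 33.8% lower, and each count is to be read against these shares. Of 16 pluripotency genes, all tested, 3 rose and 11 fell with a median log2 difference of -0.41, among the falls Dppa5a at -1.28, Klf2 at -1.25 and Prdm14 at -1.09, and among the rises Dppa3 at 0.93 and Utf1 at 0.58. Their summed level went from between 143200 and 145000 normalised counts in the controls to between 87020 and 88500, so their summed signal was lower but present in both Chd4 hairpin libraries. Of 19 primitive endoderm genes 15 were tested, 11 rose and 3 fell, with a median of 2.04 and a summed level of 6274 to 6627 in the controls against 11080 to 11340. Dab2, an endocytic adaptor of primitive endoderm, rose from 1.78 ± 0.0556 to 616 ± 4.79 normalised counts, while Gata4 at -2.14 and Sox17 at -1.94, factors that specify that lineage, fell. Afp was at 0 in both controls and at 34.6 ± 1.65 with the Chd4 hairpin. The transcription factor gene Sox7 rose, as did Amn, so the factors of this list did not all fall. Dab2, Afp, Sox7 and Amn, all called, passed the filter only through the Chd4 hairpin libraries.

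Surface ectoderm markers were tested for 6 of 9 genes, of which 5 rose (83.3%, beside 33.5% of all genes) and none fell, with a summed level of 1216 to 1239 in the controls against 2508 to 2557. Krt5, a basal keratin, was at 0 in both controls and at 43.4 ± 2.82 with the Chd4 hairpin, and Perp rose by a log2 difference of 3.00. Krt5 and Trp63 passed the filter only through the Chd4 hairpin libraries. Without them 3 of 4 rose, beside 4085 of 14220 genes under the same exclusion. Blood and endothelial markers were tested for 6 of 13 genes, of which 3 rose, Erg at 4.83, Spi1 at 2.90 and Tek at 2.16, and their summed level was 1917 to 1969 against 3254 to 3459. Erg and Spi1 passed the filter only through the Chd4 hairpin libraries. Mesoderm markers were tested for 7 of 16 genes, of which 3 rose and Gsc fell by 2.54, with a summed level of 197.9 to 215.1 against 319.3 to 345.7. Their median of 0.73 became -0.41 under quantile normalisation. Fibroblast markers were tested for 4 of 10 genes, of which 3 rose, Col1a1 at 4.64 among them, and Fbln1 fell by 1.70 (Col1a1 and Postn passed the filter only through the Chd4 hairpin libraries), while the summed level went down from between 1479 and 1483 to between 929.8 and 1038. The part of these cell types in the keratin, Gata3 and Gata2 differences was not tested.

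**Figure D2:**
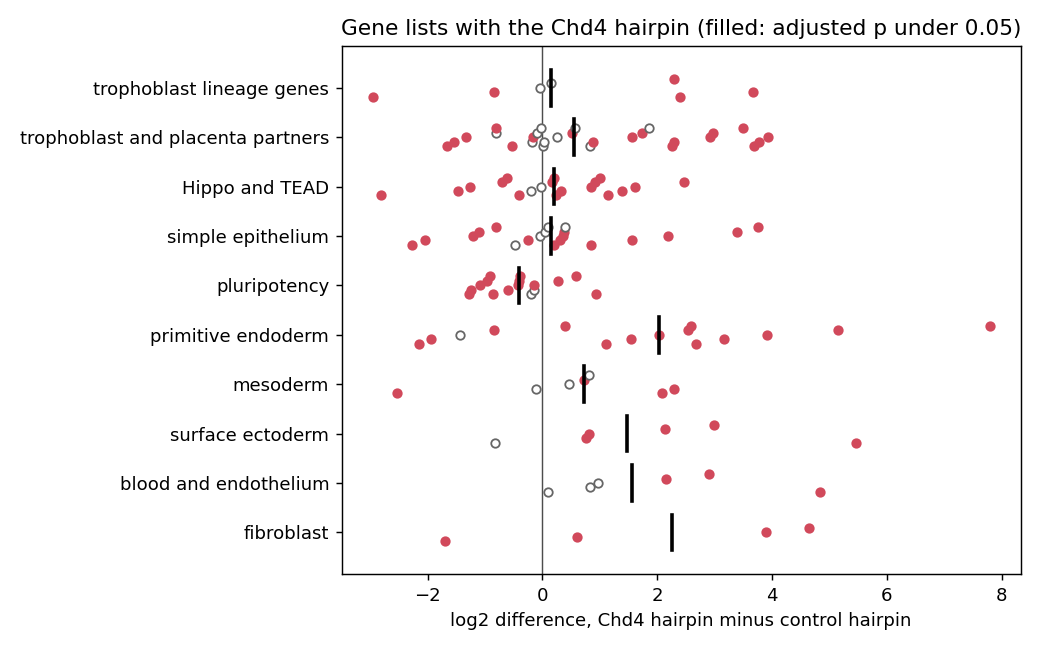
Log2 differences of every tested gene of 10 gene lists, Chd4 hairpin minus control hairpin, 1 point per gene, filled where the adjusted p was under 0.05, with a bar at each list's median. Each list except surface ectoderm and blood and endothelium held called genes on both sides of 0, and the pluripotency median of -0.41 was the only one below 0.

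After IAA in CTCF AID cells in the standard medium, 1 trophoblast lineage gene passed the test at 12 h and none at 24 h. The member called at 12 h, Tfap2c, was 1 of 5 tested, beside 17.8% of all 13699 genes tested. Tfap2c was at 1268 and 1236 normalised counts at 0 h, at 988 and 1062 at 12 h, and at 1073 and 1118 at 24 h. Both 12 h libraries and both 24 h libraries lay below both 0 h libraries, as they did for 30.7% and 31.3% of all genes tested. Tfap2c fell by 0.29 at 12 h (SE 0.07, limma adjusted p = 0.0259). Leaving out any 1 of the 4 libraries ended the call, with log2 differences from -0.34 to -0.24. Such a fit keeps 1 library in a group, and calls over all genes dropped in it too, so the loss is not particular to Tfap2c. At 24 h its log2 difference was -0.19 (limma adjusted p = 0.0793). None of the 5 members was called by limma at 24 h against 0 h, beside 22.5% of all genes, and 2 had an unadjusted p under 0.05. None was called between 24 h and 12 h, beside 0.146% of all genes, and 1 had an unadjusted p under 0.05.

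Gata2 varied widely between CTCF AID replicates, at 92.2 and 38.9 normalised counts at 0 h, at 12.9 and 19.99 at 12 h, and at 24.2 and 205 at 24 h. One 24 h library exceeded the other by more than any group mean of Gata2 in the table. The log2 difference at 12 h was -1.84 (SE 0.91, limma adjusted p = 0.216). Krt7 was at 24.9 and 39.1 at 0 h, at 14.2 and 21.7 at 12 h and at 66.6 and 51.3 at 24 h. The 3 time points of Krt7 did not overlap, yet its log2 difference of 1.68 between 12 and 24 h (SE 0.36) had a limma adjusted p of 0.126. Of all genes tested, 61.8% did not overlap at 12 h against 0 h, 63% at 24 h against 0 h and 44.5% at 24 h against 12 h. Krt8 was at 146 and 156, 153 and 126, and 127 and 109 at the 3 times. Krt18 was at 94.0 and 68.9, 63.4 and 58.5, and 57.9 and 59.0. The highest values of both keratins were at 0 h, and Krt18 was below both 0 h libraries at 12 and 24 h. At 12 h the log2 difference of Krt8 was -0.12 (limma adjusted p = 0.68) and that of Krt18 -0.40 (limma adjusted p = 0.284). Cdx2, the homeobox factor of trophectoderm, was listed but under the filter, at 1.05 and 3.51 at 0 h, at 2.98 and 15.6 at 12 h and at 4.51 and 20.2 at 24 h. Its 12 h libraries overlapped those of both other times, and both 24 h libraries lay above both 0 h libraries, with replicates far apart.

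The serum condition listed the most members, 8 of 10, and all 8 passed the filter. None was called by limma after 12 h of IAA, beside 17.0% of all 14494 genes tested, and 1 had an unadjusted p under 0.05. That member was Krt18, at 342 and 328 normalised counts at 0 h and at 423 and 396 at 12 h. Krt8 was at 402 and 385 at 0 h and at 424 and 483 at 12 h. Both keratins were higher in both treated libraries, with log2 differences of 0.29 for Krt18 (SE 0.09, limma adjusted p = 0.0627) and 0.20 for Krt8 (SE 0.09, limma adjusted p = 0.186). Tfap2c was at 654 and 624 at 0 h and at 581 and 627 at 12 h, which overlapped.

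Trophoblast factors with low counts were measurable in the serum table. Hand1, a helix-loop-helix factor of giant cells listed in no other table, was at 18.05 and 13.8 normalised counts at 0 h and at 22.2 and 26.5 at 12 h. Ascl2 was at 31.9 and 23.3 at 0 h and at 39.3 and 44.8 at 12 h. Cdx2 was at 12.8 and 2.12 at 0 h and at 21.2 and 15.8 at 12 h. For these 3 genes, as for Krt8 and Krt18, both treated libraries lay above both untreated ones. That makes 5 of the 8 members, beside 30.1% of all genes tested whose 2 treated libraries lay above both untreated ones. Cdx2 is counted in the 5, but with an untreated mean of 7.44 it passed the filter only through its treated libraries. None of the 3 genes passed the limma threshold, with log2 differences of 0.59 for Hand1 (limma adjusted p = 0.259), 0.60 for Ascl2 (0.174) and 1.56 for Cdx2 (0.172). The Cdx2 value rested on the untreated libraries, since without the first of them the log2 difference was 2.63 with an adjusted p of 0.0143, and without the second it was 0.49 with an adjusted p of 0.516. Gata2 was at 54.2 and 80.9 at 0 h and at 79.2 and 63.5 at 12 h, and Krt7 at 25.02 and 35.0 against 34.6 and 30.4, and both overlapped.

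In RAD21 AID cells given 5-Ph-IAA, Tfap2c fell while Krt18 rose. Tfap2c was at 647 and 728 normalised counts at 0 h, at 483 and 514 at 12 h, and at 383 and 330 at 24 h. Krt18 was at 122 and 118 at 0 h, at 158 and 141 at 12 h, and at 231 and 227 at 24 h. Neither gene's libraries overlapped between any of the times, and the steps ran downwards for Tfap2c and upwards for Krt18. Of all genes tested, 59.9% did not overlap at 12 h against 0 h, 58.7% at 24 h against 0 h and 60.1% at 24 h against 12 h. At 12 h, 1 of 6 tested members was called, beside 13.0% of all 13738 genes tested, and Tfap2c fell by 0.46 on the log2 scale (SE 0.11, limma adjusted p = 0.0381). That call was lost when any 1 of the 4 libraries was left out, with log2 differences from -0.55 to -0.38. Calls over all genes dropped in these fits too.

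At 24 h of 5-Ph-IAA, 2 of 6 members were called, beside 13.7% of all genes. Tfap2c fell by 0.95 on the log2 scale (SE 0.11, limma adjusted p = 0.00301) and Krt18 rose by 0.93 (SE 0.14, limma adjusted p = 0.00769). Between 12 and 24 h Tfap2c and Krt18 were again the 2 members called, beside 15.9% of all genes, Tfap2c at -0.49 (limma adjusted p = 0.0272) and Krt18 at 0.61 (limma adjusted p = 0.0266). The Krt18 call between 12 and 24 h was lost when any of the 4 libraries was left out, with log2 differences from 0.53 to 0.69. The Tfap2c call was lost in each such fit except that without the first 24 h library, with log2 differences from -0.59 to -0.38. Calls over all genes also dropped in these fits. Krt8, the partner of Krt18, was at 216 and 183 at 0 h, at 217 and 191 at 12 h, and at 290 and 267 at 24 h. Both 24 h libraries of Krt8 lay above the other 4, with a log2 difference from 0 h of 0.48 (SE 0.14, limma adjusted p = 0.0669).

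The remaining RAD21 AID values were low and uneven. Gata2 was at 35.4 and 31.6 normalised counts at 0 h, at 38.4 and 12.2 at 12 h, and at 21.5 and 5.85 at 24 h. Krt7 was at 105 in 1 untreated library and at 1.63 in the other, then at 6.41 and 0.608 at 12 h and at 6.16 and 15.1 at 24 h. Ascl2 was at 18.4 and 25.6, 15.6 and 31.7, and 22.8 and 17.5 at the 3 times. Replicates of Krt7 thus differed more than any of its times did, and none of the 3 genes was called at either time. Cdx2, Elf5, Gata3 and Hand1 were not listed in this table. Beside these values, 8 of 19 tested simple-epithelial genes (42.1%) were higher and none lower at 24 h against 0 h, with a median log2 difference of 0.35. Of the 8, 1 passed the filter only through its treated libraries. Without it 7 of 18 (38.9%) were higher, beside 887 of 13490 genes under the same exclusion. Of 16 pluripotency genes, 3 were higher and 6 lower (56.2%), with a median of -0.04, and 13.7% of all genes were called in this comparison. Their part in the Tfap2c and Krt18 differences was not tested.

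**Figure D3:**
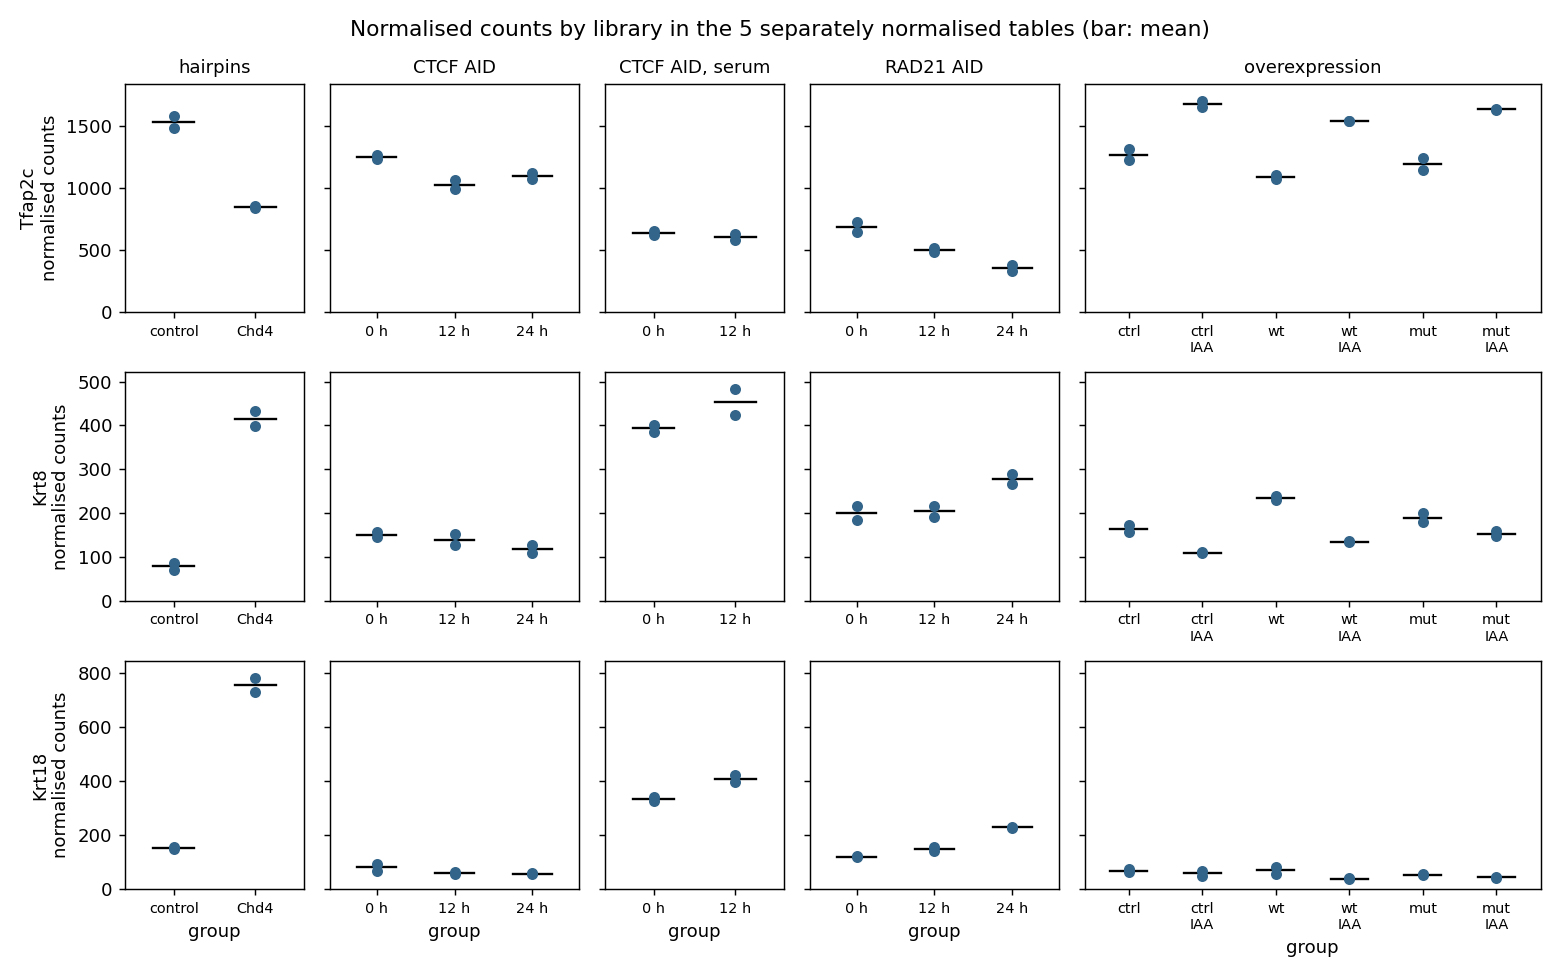
Normalised counts of Tfap2c, Krt8 and Krt18 in every library (points) with group means (bars), in the 5 tables from left to right, each normalised separately so that levels are to be compared within a panel. In the RAD21 AID panels Tfap2c went from 647 and 728 at 0 h to 383 and 330 at 24 h while Krt18 went from 122 and 118 to 231 and 227, and in the overexpression panels Tfap2c was higher with IAA in each pair of groups.

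In the control cells of the overexpression table, Tfap2c rose and Krt8 fell with 12 h of IAA. Tfap2c was at 1314 and 1221 normalised counts without IAA and at 1703 and 1648 with it. Krt8 was at 173 and 157 without IAA and at 111 and 108 with it. Neither pair of groups overlapped, and 2 of 6 tested members were called, beside 25.3% of all 13938 genes tested. The log2 difference was 0.40 for Tfap2c (SE 0.06, limma adjusted p = 0.000443) and -0.58 for Krt8 (SE 0.12, limma adjusted p = 0.00545). Median-centring the libraries moved the share of all calls that were higher from 50.5% to 61.5%.

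With wild-type CTCF, 3 of 6 members were called after IAA, beside 21.4% of all genes. Both IAA libraries of this comparison carry a treatment label without IAA. Tfap2c was at 1107 and 1068 without IAA and at 1539 and 1541 with it, which is 0.50 on the log2 scale (SE 0.06, limma adjusted p = 0.00018). Krt8 was at 231 and 239 without IAA and at 136 and 133 with it, which is -0.80 on the log2 scale (SE 0.12, limma adjusted p = 0.00111). Krt18 was at 57.0 and 82.4 without IAA and at 40.9 and 36.5 with it. These libraries did not overlap, and Krt18 fell by 0.81 (SE 0.25, limma adjusted p = 0.0385). The call was lost without either IAA library or without the second untreated library (log2 differences from -0.89 to -0.55). Calls over all genes dropped in those fits too. The Krt18 call was also lost under quantile normalisation (limma adjusted p = 0.0551) and with only the compared groups in the fit (0.0961). The share of all calls that were higher was 51.8% as deposited and 66.0% after median-centring.

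With mutated CTCF, 1 of 6 members was called after IAA, beside 16.2% of all genes. Both libraries without IAA in this comparison carry a treatment label of 12 h of IAA. Tfap2c was at 1244 and 1141 without IAA and at 1630 and 1635 with it, which is 0.45 on the log2 scale (SE 0.06, limma adjusted p = 0.000444). Krt8 was at 201 and 179 without IAA and at 158 and 148 with it, which did not overlap, and their log2 difference was -0.31 (SE 0.12, limma adjusted p = 0.119). Cdx2 was at 17.1 and 21.7 without IAA and at 32.5 and 42.6 with it. Both IAA libraries of Cdx2 lay above both others, and its log2 difference of 0.91 (SE 0.32, limma adjusted p = 0.0789) did not pass. In the control Cdx2 was at 19.3 and 14.6 without IAA and at 19.4 and 14.5 with it, and with wild-type CTCF at 27.97 and 32.7 and at 18.4 and 22.6. After median-centring, 61.8% of all calls were higher, against 51.2% as deposited.

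Whether the exogenous CTCF altered the response to IAA was tested as the difference of the differences. None of the 6 members was called by limma for wild-type CTCF or for mutated CTCF against the control, beside 1.41% and 1.64% of all genes, and none had an unadjusted p under 0.05 in either. The interval for Tfap2c was narrow, from -0.08 to 0.27 with wild-type CTCF around an estimate of 0.10, and from -0.13 to 0.23 with mutated CTCF around 0.05. For Cdx2 with mutated CTCF the estimate was 0.92, with a 95% interval from -0.08 to 1.91 (limma adjusted p = 0.45). Without IAA, wild-type CTCF against the control called no member, beside 0.897% of all genes, and 3 had an unadjusted p under 0.05. These were Cdx2 at a log2 difference of 0.81 (limma adjusted p = 0.328), Tfap2c at -0.22 (0.132) and Krt8 at 0.51 (0.108). With the wild-type libraries grouped by treatment label instead, these values were 0.54 for Cdx2, 0.03 for Tfap2c and 0.11 for Krt8 (adjusted p = 0.855, 0.98 and 0.947). Mutated CTCF against the control called none, beside 5.55% of all genes, and none had an unadjusted p under 0.05. The mutated CTCF libraries used there, and in its difference of differences, carry a treatment label of 12 h of IAA. The wild-type IAA libraries in the other difference of differences carry a label of no treatment. The comparisons without IAA and the differences of differences reuse the libraries of the IAA comparisons, so they are not independent of them.

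Of the low members of the overexpression table, Gata2 and Krt7 varied without a call. Gata2 lay between 32.6 and 78.7 normalised counts in the 4 control libraries, between 35.3 and 58.9 in the 4 with wild-type CTCF and between 13.4 and 35.5 in the 4 with mutated CTCF. With mutated CTCF, 3 of the 4 libraries lay below every other library of the table, and without IAA its log2 difference from the control was -0.97 (SE 0.46, limma adjusted p = 0.267). Krt7 lay between 13.6 and 39.4 over the 12 libraries. Krt18 lay between 49.8 and 76.1 in the control libraries, and Ascl2, under the filter, between 0.869 and 10.9 over all 12.

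**Figure D4:**
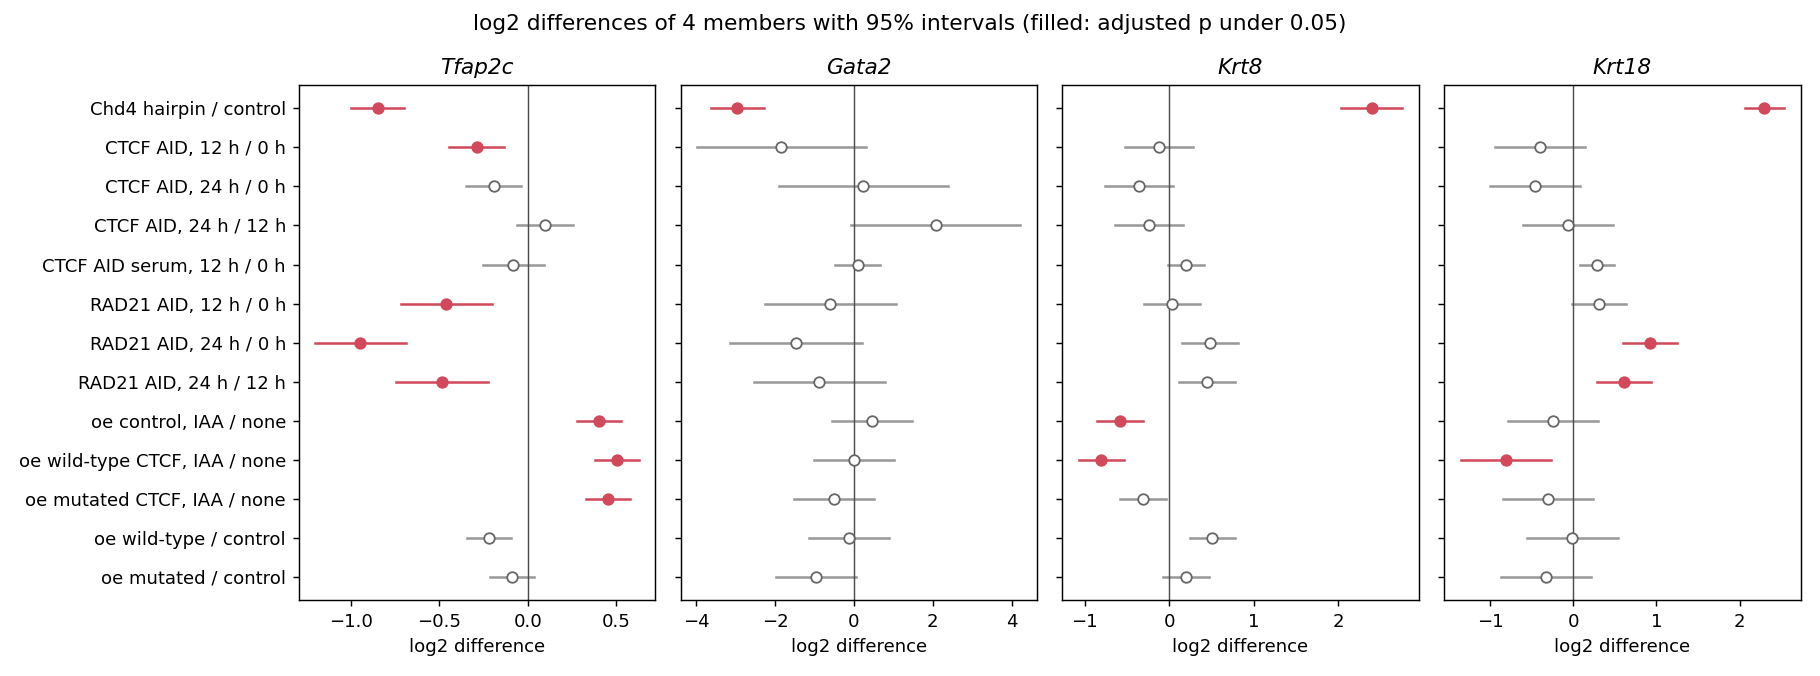
Log2 differences of Tfap2c, Gata2, Krt8 and Krt18 (x axis, scaled per panel) with 95% intervals from limma in 13 comparisons, filled where the adjusted p was under 0.05. Tfap2c was called in 8 of the 13, lower with the Chd4 hairpin, with CTCF AID at 12 h and in the 3 RAD21 AID comparisons, and higher in the 3 IAA comparisons of the overexpression table, while Gata2 was called with the Chd4 hairpin only.

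Partner genes of the trophoblast programme were called in each degron comparison against untreated cells. Of 24 tested after 12 h of IAA in CTCF AID cells, 4 were called (16.7%, beside 17.8% of all genes), Ets2 at -1.06 and Peg10 at -1.57 among them, and 8 of 24 (33.3%, beside 22.5%) at 24 h, with Msx2 at -1.53 and Ets2 at -1.26. In serum 6 of 26 (23.1%, beside 17.0%) were called, including Dlx3, a homeobox gene of the labyrinth, at 1.89 and Ets2 at -0.72. In RAD21 AID cells 4 of 22 (18.2%, beside 13.0%) were called at 12 h, Rhox9 at 1.51 and Tfap2a at -0.66 among them, and 3 of 22 (13.6%, beside 13.7%) at 24 h, with Peg10 at -1.06 and the T-box factor Eomes at -0.61. Among overexpressing cells with IAA, 8 of 22 (36.4%, beside 25.3%) were called in the control. Of these, 1 passed the filter only through groups other than the untreated control. Without it 7 of 21 (33.3%) were called, beside 25.5% of all genes under the same exclusion. With wild-type CTCF 7 of 22 (31.8%, beside 21.4%) were called, and with mutated CTCF 7 of 22 (31.8%, beside 16.2%). With mutated CTCF, Bmp4, a signal that can drive trophoblast fates, fell by 3.57 and the FGF receptor gene Fgfr2 rose by 1.35. At 2-fold or more, 2 partners were also called with wild-type CTCF and at least 2 in the control. Bmp4 and Fgfr2 values are not given here for those groups, so these changes are not to be read as particular to mutated CTCF. Ets2, which holds trophoblast stem cells in their state, was among the falls named with the Chd4 hairpin and after IAA in both CTCF AID media. Its values in the RAD21 AID and overexpression comparisons are not given here, so no wider pattern is drawn.

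Per kilobase of exon, the order of the members differed between tables, which were normalised separately. In untreated CTCF AID cells Tfap2c was at 340 ± 6.15, Krt8 at 77.2 ± 3.45 and Krt18 at 56.7 ± 12.3 normalised counts per kilobase. In untreated RAD21 AID cells the order was the same, with Tfap2c at 187 ± 15.5, Krt8 at 102 ± 12.0 and Krt18 at 83.5 ± 1.98. In untreated serum cells the keratins led, with Krt18 at 233 ± 7.27, Krt8 at 201 ± 6.09 and Tfap2c at 174 ± 5.81. After 24 h of 5-Ph-IAA Krt18 was at 159 ± 1.92, Krt8 at 142 ± 8.26 and Tfap2c at 96.9 ± 10.03. In each of these 4 groups the libraries of neighbours in the order did not overlap. The highest group mean of Gata2, Gata3, Cdx2, Hand1, Ascl2 and Krt7 in any table was 25.9 ± 2.39, for Ascl2 after IAA in serum.

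Likeness of pattern was measured as Pearson's r over all 32 libraries of log2(value + 1) minus the mean of each table's untreated or control group, among 12389 genes tested in every table. The libraries share their tables' controls and batches, so r is a description. Among the genes most like Krt8 were Atl2 (0.961) and Wdfy2 (0.936), and Krt18 came at rank 45 with 0.882. Over the 28 libraries without the hairpin table, a choice made after the values were seen, the most similar were Grb7 (0.882), Wwtr1 (0.864) and Trap1a (0.836), and Krt18 came at rank 479 with 0.593. The genes named therefore depended on the Chd4 hairpin libraries. Tfap2c had r of -0.772 with Krt18 and -0.684 with Krt8 over 32 libraries, and -0.727 and -0.623 over 28. Cdx2 was not tested in every table, so no genes are named for it.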

How the data were processed

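RNA was sequenced in 32 libraries of E14 cells. The authors deposited normalised counts in 5 tables, a never-negative signal, normalised separately and compared here within a table only. Per the submitters' processing notes, the tools named were Trim Galore, Bowtie2, STAR, RSEM and DESeq2 and the build mm10, with no versions or roles. The annotation, the use of strand in counting and the rule for listing a gene are not given in the sources used here. The low values fitted no common step per library (best step 0.812 to 1.253, coherence 0.262 to 0.5), so reads were not recovered, no count test was run and depth is known only approximately. The last line of the CTCF AID table breaks off, and that 1 line was dropped. Every column was matched to a sample, leaving 0 unmatched. The growth protocol describes serum-free medium although 4 libraries are labelled as serum.

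Differences were fitted with limma 3.58.1 in R 4.3.3 (eBayes with trend, all groups of a table in 1 fit) on log2(value + 1), for genes with a mean of at least 10, with Benjamini-Hochberg adjustment over all genes tested. This scale understates the change of low genes. The fit was run on simulated counts with a fixed spread and few changed genes. That checks the code, and not how the fit behaves on replicates as uneven as some here. Replicate numbers were not treated as pairs: the correlation of same-numbered deviations lay between -0.0634 and 0.102. Positions and exon lengths come from GENCODE M21 on GRCm38, where 99.9% of identifiers were found, and promoters from RefSeq. Members and gene lists were chosen with earlier results of these data known. The text describes every member, and from each other list at most the 3 called genes with the largest rise and fall with the Chd4 hairpin, 2 per other comparison. Genes that passed the filter only through the Chd4 hairpin libraries may be named besides. One gene that the rule on likeness to Krt8 names is not reported here. Alternatives covered the pseudocount, the filter, scaling, the replicate block, the trend, the groups in the fit, a 2-fold threshold and leaving out each library.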

Additional observations from a re-analysis of the deposited data

Results flagged for a closer look

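Between separately normalised tables, 3 members lay on opposite sides of their untreated libraries after 12 h of IAA in CTCF AID cells, with both treated libraries above both untreated ones in 1 table and below them in another. Such opposite separation was common, and was found for 15.5% of all genes between the standard and serum tables, 11.3% between the standard and overexpression tables and 12.3% between the serum and overexpression tables. The tables differ in culture or in the overexpressed control, and the difference between tables was not tested. Tfap2c had a log2 difference of -0.29 in the standard CTCF AID table and 0.40 in the overexpression control. The call in the standard table was lost without the trend (limma adjusted p = 0.0797) and when any 1 library of the comparison was left out. Krt8 had a log2 difference of 0.20 in serum, which did not pass the limma threshold, and -0.58 in the overexpression control. Krt18 had a log2 difference of -0.40 in the standard CTCF AID table and 0.29 in serum, neither of which passed the limma threshold.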

How the results depend on the processing

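Of 17 calls of a member in a comparison, 12 held under every alternative fit that still tested the gene. Requiring 2-fold as well left 4, a filter at a mean of 100 left 3 of the 17 untested, and 2 calls, those of Krt8 and Krt18 with the Chd4 hairpin, held under all of these. Of 73 pairs not called, 6 were called under some alternative. Ascl2 with the Chd4 hairpin reversed under quantile normalisation, to -1.07 (adjusted p = 0.0422) from 0.15. Cdx2, Hand1 and Ascl2 were at low counts, where a difference may not have been detectable, and 2 libraries a group limit every test.

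The number of members called with the Chd4 hairpin was 3 with a filter at a mean of 100, against 5. Under quantile normalisation CTCF AID at 24 h gave 1 instead of 0, Tfap2c at -0.24. Without the trend, CTCF AID at 12 h gave 0 instead of 1, RAD21 AID at 12 h 0 instead of 1, RAD21 AID between 12 and 24 h 1 instead of 2, and mutated CTCF with IAA 3 instead of 1. With a fit of the compared groups alone, CTCF AID at 12 h gave 2 instead of 1. With a change of at least 2-fold required as well, no member (0) was called in CTCF AID at 12 h, in any RAD21 AID comparison or with IAA in any overexpression group, against 1 to 3. Leaving out each library in turn gave 0 to 0 members for CTCF AID at 12 h and RAD21 AID at 12 h, 0 to 1 for serum and RAD21 AID between 12 and 24 h, and 2 to 3 for wild-type CTCF with IAA.

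With the replicate block, the numbers called were 0 instead of 1 for RAD21 AID at 12 h, where Tfap2c had an adjusted p of 0.064, and the block changed no other count of members called by over 1.5 times. Over all genes, requiring 2-fold cut the calls in every comparison, from 10439 to 4465 with the Chd4 hairpin. Without the trend, calls fell from 2438 to 1428 for CTCF AID at 12 h, from 2462 to 316 in serum, and from 1787 to 158 and 1883 to 216 for RAD21 AID at 12 and 24 h. CTCF AID between 12 and 24 h had 20 calls and 0 with the block, without the trend or with only the groups compared. Wild-type CTCF against the control without IAA had 125 calls, 2 with only the groups compared and 4 with groups from the treatment label.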
